A study of Homo sapiens with 9 samples.

Results

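The 250 genes with most nascent RNA were selected on their BrU-seq density in the first 3 kb, the only measured value in the gene list of the series, and they are referred to here as the members. BrU-seq sequences RNA that has taken up bromouridine during a short pulse, so that it counts newly made RNA. All listed genes with a value were sorted by this density from high to low, ties were broken by gene identifier, and the members were the first 250 of 9501 ranked genes, out of 9588 listed. They were compared with the next 2750 genes, down to rank 3000, called the comparison genes here. The density chose the members, so it is given as a description and without a test.

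The series holds H2BK120Ub ChIP-seq of hTERT-immortalised human RPE1 cells, a line derived from retinal pigment epithelium, with the genotype RPE1 iCas9 p53/puro-dKO. Mock cells gave 2 libraries and 1 input, and cells that received 9 J/m2 of UV-C gave 2 libraries after 3 h and 4 after 24 h. H2BK120Ub is ubiquitin on lysine 120 of histone H2B, a mark that is laid down behind elongating RNAPII. The BrU column is named for unirradiated (mock) WT cells and was made from reads of an earlier study. It is 1 value per gene with no replicate, so no error between cultures can be given, and ChIP-seq signal was not analysed here. All cells come from 1 established line.

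A gene makes much nascent RNA in its first 3 kb when polymerases start often and move into the gene. Starting is set in part by short letters around the transcription start site (TSS). A TATA box lies shortly upstream of the start in a minority of genes, many of them inducible, and is bound by the TATA-binding protein. Genes of ribosomal proteins and other parts of the translation apparatus usually start at a C within a run of pyrimidines, the 5′ terminal oligopyrimidine or TOP motif, through which cells adjust translation of these mRNAs to growth conditions. Most other promoters of widely used genes are GC-rich CpG islands with neither.

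The starts of the highest members show both kinds of letters. Each sequence runs from 50 bases before to 30 bases after the listed TSS, in hg38, 5′ to 3′ on the coding strand, and was chosen after the values were seen. The first set holds the 6 highest members whose TSS was a C followed by 4 pyrimidines, which are in capitals. EEF1A1 starts on the minus strand (chr6:73521003-73521082), RPS24 on the plus strand (chr10:78033813-78033892), RPS14 on the minus strand (chr5:150449710-150449789), RPL26 on the minus strand (chr17:8383164-8383243), RPL37A on the plus strand (chr2:216498794-216498873) and RPL11 on the plus strand (chr1:23691756-23691835).
EEF1A1: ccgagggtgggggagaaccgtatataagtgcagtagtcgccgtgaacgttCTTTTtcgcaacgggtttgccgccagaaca
RPS24: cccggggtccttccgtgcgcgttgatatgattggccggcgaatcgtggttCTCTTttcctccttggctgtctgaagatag
RPS14: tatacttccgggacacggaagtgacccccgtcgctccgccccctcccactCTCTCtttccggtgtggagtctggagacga
RPL26: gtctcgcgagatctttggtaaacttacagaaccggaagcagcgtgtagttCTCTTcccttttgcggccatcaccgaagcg
RPL37A: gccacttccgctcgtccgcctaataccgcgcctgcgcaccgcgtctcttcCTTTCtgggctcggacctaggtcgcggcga
RPL11: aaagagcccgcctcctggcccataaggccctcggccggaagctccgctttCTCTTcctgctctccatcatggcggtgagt

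The second set holds 5 members of high density with TATAAA, in capitals, between 40 and 20 bases before the TSS. CCN1 lies on the plus strand (chr1:85580711-85580790), ZFP36L1 on the minus strand (chr14:68793038-68793117), PPIA on the plus strand (chr7:44796631-44796710), RGS4 on the plus strand (chr1:163069311-163069390) and SRSF3 on the plus strand (chr6:36594312-36594391). The motif began 30 bases before the TSS in CCN1, RGS4 and SRSF3, 31 in PPIA and 29 in ZFP36L1.
CCN1: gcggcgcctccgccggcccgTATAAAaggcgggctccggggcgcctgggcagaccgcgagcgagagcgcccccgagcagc
ZFP36L1: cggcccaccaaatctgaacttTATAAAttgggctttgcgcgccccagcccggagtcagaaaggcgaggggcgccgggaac
PPIA: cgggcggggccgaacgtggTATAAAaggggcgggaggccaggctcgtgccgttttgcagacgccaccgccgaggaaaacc
RGS4: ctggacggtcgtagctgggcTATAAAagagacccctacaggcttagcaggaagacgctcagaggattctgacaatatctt
SRSF3: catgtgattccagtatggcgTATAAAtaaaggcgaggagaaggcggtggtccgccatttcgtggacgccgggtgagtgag

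The last set holds the 3 highest members with neither TATAAA nor the pyrimidine start. They are PLK2 on the minus strand (chr5:58460057-58460136), NORAD on the minus strand (chr20:36050932-36051011) and STC2 on the minus strand (chr5:173328385-173328464).
PLK2: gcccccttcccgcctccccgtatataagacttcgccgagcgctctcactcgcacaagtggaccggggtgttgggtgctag
NORAD: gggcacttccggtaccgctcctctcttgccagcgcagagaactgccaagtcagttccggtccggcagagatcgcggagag
STC2: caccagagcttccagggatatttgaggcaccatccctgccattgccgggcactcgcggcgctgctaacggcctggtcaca
The windows of EEF1A1 and PLK2 hold the letters TATATAA, which contain TATAA but not TATAAA. With the shorter TATAA both genes are counted, and EEF1A1 then carries both kinds of letters.

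The members were steeply graded among themselves. EEF1A1, which brings aminoacyl-tRNA to the ribosome, stood first with a density of 12067, and PLK2, a stress-induced polo-like kinase, second with 8380.2. They were followed by CCN1, a secreted matrix protein and a classical YAP target, with 3657. All other members lay between 2896 and 211.9, and the median member stood at 304.2, against 58.3 in the comparison genes. EEF1A1 was 57.0 times the density of the last member. The density covers the same length in every gene, so these levels are per length. Exon share of the window and sequence shared with other places differ between genes, as given below, and were not corrected for here.

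Ranks 4 to 20 mixed translation genes with secreted and signalling proteins. RPS24 had 2896, RPS14 2650.05 and RPL26 2325, all of them ribosomal proteins. NORAD, a noncoding RNA that binds Pumilio proteins, had 2292. ZFP36L1, which promotes decay of AU-rich mRNAs, had 1926, and the ribosomal protein gene RPL37A had 1868. The secreted glycoprotein gene STC2 had 1729. EIF1, which helps select the start codon, had 1653, and PPIA, the prolyl isomerase cyclophilin A, had 1553. The galectin gene LGALS1 had 1505, and RGS4, which speeds GTP hydrolysis by G-protein alpha subunits, had 1484. The splicing factor gene SRSF3 had 1256, and ANXA2, a membrane-binding annexin, had 1219. RPL11 had 1206 and MCL1, a short-lived BCL2 relative that blocks apoptosis, had 1133. In all, 25 members had a density above 1000 and 57 above 500.

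**Figure D1:**
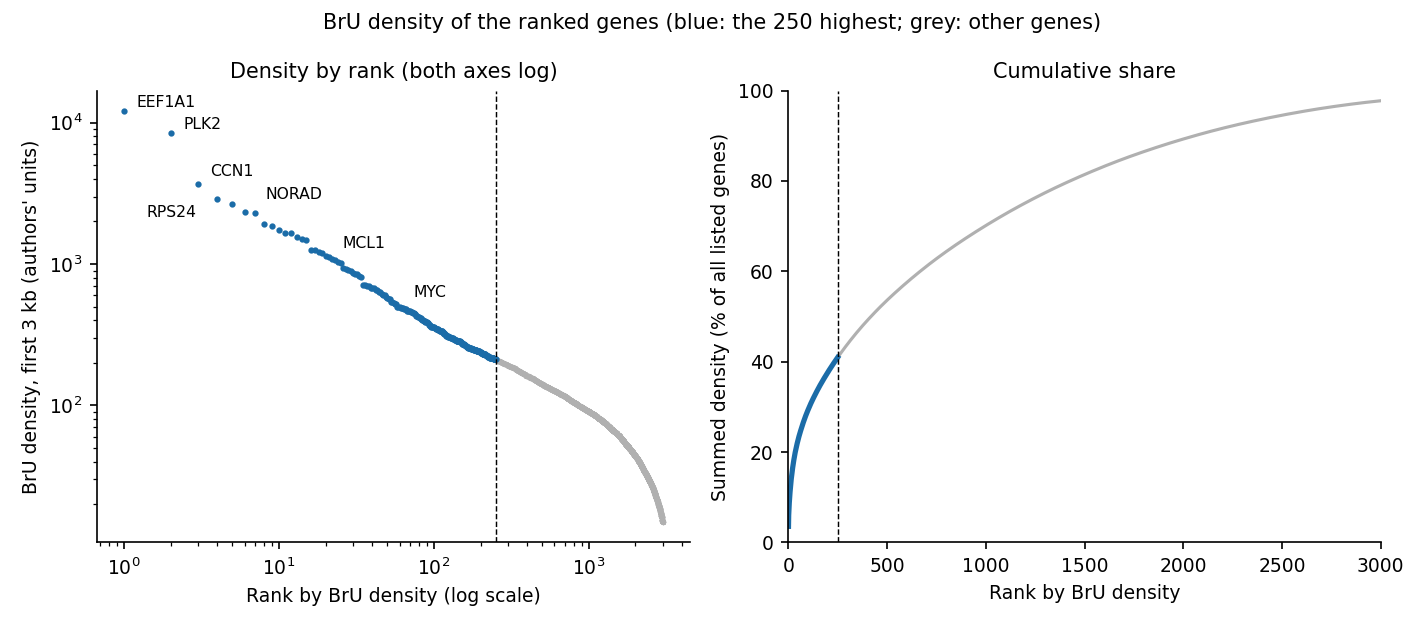
BrU density in the first 3 kb (authors' units) against rank for ranks 1 to 3000, both axes on log scales (left), and the summed density up to each rank as a percent of all listed genes (right). Each point is 1 gene, blue marks the 250 highest, the dashed line is the limit after rank 250, and the members reach 40.9% of the sum.

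The members held 40.9% of the summed density of all listed genes while being 2.63% of the genes with a value. The comparison genes held 56.8% and all lower ranks 2.27%. Within the top 3000 the members held 41.9% of the sum as 8.33% of the genes. EEF1A1 alone held 3.56% of the whole sum, EEF1A1 and PLK2 together 6.03%, and the 20 highest members 15.9%. Of the members' own sum, EEF1A1 took 8.70%, the 10 highest 28.7%, the 50 highest 55.7% and the 100 highest 71.6%. As many as 419 genes were needed to reach 50% of all listed density and 2059 to reach 90%. These shares refer to the listed genes only. Widely expressed genes such as ACTB, GAPDH, VIM and FN1 are not on the list, and of 86 protein-coding GENCODE genes with a ribosomal protein symbol 18 are.

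At the lower end the density fell without a gap. The last 2 members, TGIF1 and TOR1AIP2, had 213.4 and 211.9, while the next 2 genes, FBXL5 and SNX19, had 210.3 and 210.04. All values above 0 were whole multiples of 0.0433 within 0.01 of a step, and TOR1AIP2 stood at 4889 steps. If a step is 1 read, which the sources used here do not state, its counting error would be 3.03 density units (SD), or 1.43%, and 20 members and 12 genes outside would lie within 2 such errors of it. That covers counting error only.

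The members were short genes. Their median length was 13272 bp (quartiles 6187 and 31090 bp), against 29574 bp (14335 and 64315 bp) in the comparison genes and 21035 bp in all listed genes with a value. Of the members, 102 (40.8%) were shorter than 10 kb, against 16.1% of the comparison genes and 28.1% of all. At the other end, 31 members (12.4%) reached 50 kb and 8 (3.2%) reached 100 kb, against 32.3% and 13.9% of the comparison genes. Without genes that have a named processed pseudogene, an alternative chosen after seeing the data, 20.8% of the 250 highest genes reached 50 kb and their median length was 19783 bp, against 32.8% and 29304 bp in the comparison genes under the same exclusion. Genes under 10 kb held 60.7% of the members' summed density, and the 31 members of at least 50 kb held 5.57% (50 to 100 kb) and 2.23% (100 kb or more).

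Within ranks 1 to 3000, the shift toward short genes lay in the members and was steepest at their top. Lower ranks above 0 were also shorter than the comparison genes, at a median of 19310 bp with 28.5% under 10 kb. In ranks 1 to 50 the median length was 6385 bp and 34 of 50 genes were under 10 kb. In the following bands of 50 members the median was 12284, 18898, 17646 and 17205 bp. In the bands of the comparison genes the medians stayed between 28130 and 31987 bp and the share under 10 kb between 14.6% and 17.8%. Across genes, Spearman's rho between density and length was -0.28 over the 250 members and 0.04 over the 2750 comparison genes. Over ranks 1 to 3000 it was -0.06. These values describe genes of 1 data column, which are not independent replicates.

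The shortest members were H4C8 (409 bp, density 235.1), a replication-dependent histone gene, CSTB (2359 bp, 271.5), which encodes the protease inhibitor cystatin B, ZCCHC3 (2752 bp, 521.5), GSTP1 (2842 bp, 443.1), a glutathione transferase, and COX7C (3022 bp, 909.6), a subunit of cytochrome c oxidase. The 4 under 3 kb are shorter than the window, so their densities include sequence past the listed gene end. The longest were EXT1 (317337 bp, 699.9), which builds heparan sulfate chains, ZMIZ1 (247554 bp, 302.9), a transcriptional co-regulator, PRR16 (223015 bp, 215.1), ALCAM (209992 bp, 263.7), an adhesion molecule, and SEMA3C (176514 bp, 346.7), a secreted semaphorin. EXT1 stood at rank 38, the longest gene by far among the 50 highest.

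The members had compact 5′ ends. The first intron had a median of 2008 bp in the 239 members with an intron, against 4820 bp in the comparison genes and 4345 bp in all. It was under 1 kb in 78 members (31.2%), against 16.9% of the comparison genes. The first exon, at a median of 171 bp, was near the 180 bp of the comparison genes. Exons covered a median of 12.3% of the first 3 kb in the members, against 8.63%, and at least 50% of it in 38 members (15.2%), against 4.33%. The 38 included CCN1, NORAD, EIF1 and MCL1. Processed RNA that outlasts its introns would be counted in exons. Exon share moved with membership in this way, and its part in the density was not tested. Among genes with exons in under 20% of the window, the median length was 19247 bp in 167 members and 32281 bp in 2298 comparison genes.

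Base composition of the first 3 kb was close to that of the comparison group. The GC content had a median of 47.4% in the members and 47.9% in the comparison genes, and the T content of the coding strand, which sets how many bromouridines a transcript can take up, was 27.6% in both. In the 300 bases around the TSS, GC content was 63.5% and 65.3%, against 56.3% in all listed genes. The ratio of observed to expected CpG there was 0.87 in the members and 0.85 in the comparison genes, against 0.48 in all, so both groups had promoters of the CpG island kind.

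TATAAA between 40 and 20 bases before the TSS was found in 21 members (8.4%), 1.05% of the comparison genes, 3.88% of lower ranks above 0 and 3.72% of all listed genes with a value. Besides those printed above, they included ANXA2, RPL22L1, PPP1R15A, SRSF7, MYC, DKK1, RND3, CPA4, CDKN2AIP, FGF5, ANXA1, LBH, HLA-E, ADAMTS1 and TXN. The motif began 27 to 31 bases before the TSS in all 21. It was present in 10 of the 50 highest genes, then in 3, 6, 2 and 0 of the following bands of 50 members. Members with it had a median density of 490.4 and a median length of 7763 bp, against 297.6 and 13909 bp for members without it. With TATAA, which also takes in EEF1A1, PLK2, EIF1, HSP90AA1 and SFPQ, the shares were 12.8% of the members and 2.04% of the comparison genes. A match of letters is a description and does not show that a factor is bound.

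A C followed by 4 pyrimidines at the TSS was found in 28 members (11.2%), 4.44% of the comparison genes and 3.74% of all. The share was 20% in the 50 highest genes and 6% to 12% in the other member bands. It was carried by 10 of 15 members on the ribosomal protein list, and by EEF1A1 and EIF3E of 5 on the translation factor list. Without these 2 lists, it was present in 16 of 230 members (6.96%), against 4.24% of the comparison genes. Those 16 included COX7C, HNRNPA0, NACA, which binds nascent chains at the ribosome, and TOMM7 of the mitochondrial import pore. RPL22L1 was the only member with both the TATAAA and the pyrimidine start.

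**Figure D2:**
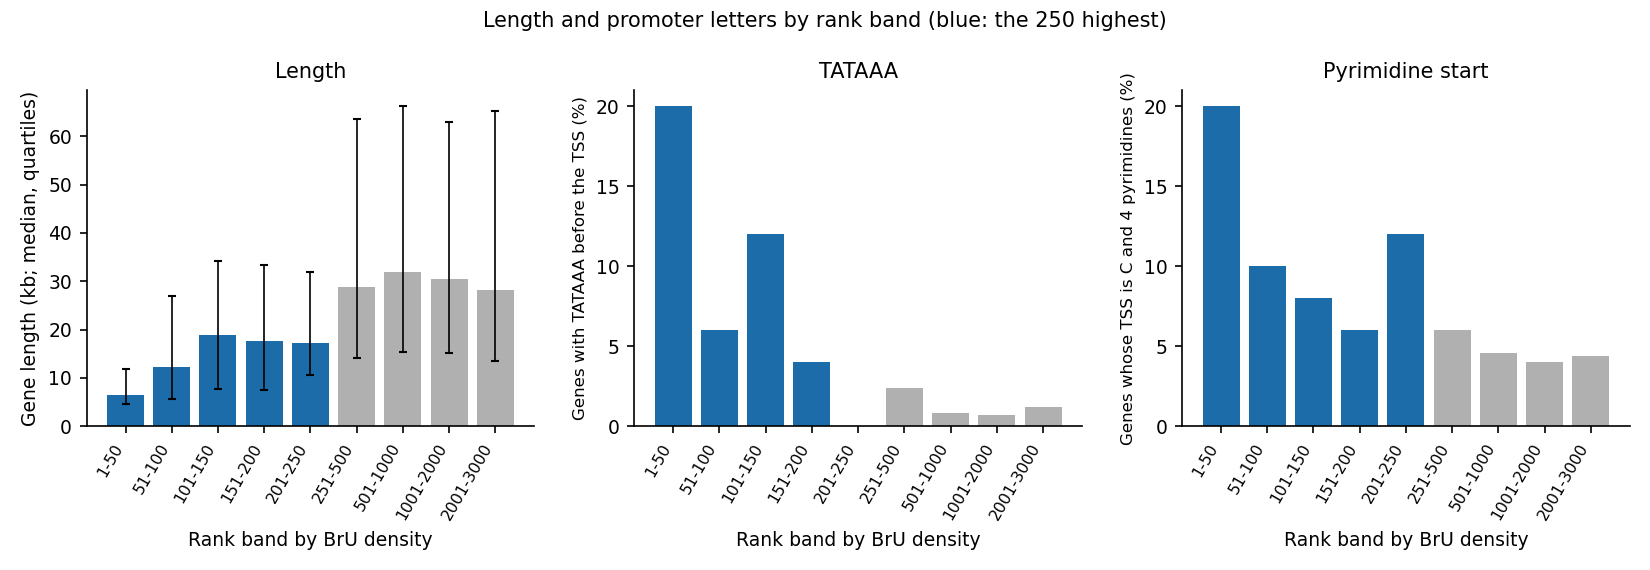
Gene length (kb, median with quartiles as error bars), percent of genes with TATAAA between 40 and 20 bases before the TSS, and percent of genes whose TSS is a C followed by 4 pyrimidines, by rank band. Blue bars are the members in bands of 50 genes and grey bars are the comparison genes, where the median length lies between 28130 and 31987 bp and the TATAAA share between 0.7% and 2.4%.

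Other promoter letters, searched on both strands from 250 bases before to 50 bases after the TSS, differed less. The share with CCAAT was 42.0% in the members and 37.2% in the comparison genes, with GGGCGG 68.4% and 72.2%, with CCGGAAG 18.8% and 20.7%, with CACGTG 7.6% and 9.67%, with GGAATG 12% and 10.2%, and with TGACTCA 4.4% and 3.45%. TGACGTCA was found in 14 members (5.6%, against 3.82%), among them PPP1R15A, SKIL and IFRD1. The CArG box, the site named for serum response factor, was found in 6 members (2.4%, against 1.05%): MCL1, GSTP1, RND3, NR2F1, PPIF and G2E3.

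By function, 102 members (40.8%) were on at least 1 of 16 lists of protein-coding functions, against 238 (8.65%) of the comparison genes. Of all listed genes with a value, 482 (5.07%) were on at least 1. The counts per list below can be read against the share that were members, 2.63% of all genes with a value and 8.33% of ranks 1 to 3000. The lists were chosen with earlier results of these data known and the shares carry no test. Members on a list were shorter than those on none, at a median of 9575 against 16186 bp.

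Ribosomal proteins, the structural proteins of the ribosome, were the most concentrated list. Of 18 listed genes with a value 15 were members, 1 was among the comparison genes and 2 were at 0. Those at 0 were RPS4Y1 and RPS4Y2 of chromosome Y, where none of the 23 listed genes with a value was above 0. The 5 highest were RPS24, RPS14, RPL26, RPL37A and RPL11, followed by RPL6 (931.1), RPS4X (706.9), RPL19 (680.6), RPL22L1 (672.5) and RPL35A (632.7), and the lowest was RPL22 (283.3). RPL22L1 and RPS27L (302.4) are paralogs of the ribosomal proteins for which they are named. The gene of this list among the comparison genes was the paralog RPL39L (62.1). Together the 15 held 12.1% of the members' summed density. Of the 21 genes on the translation factor list 5 were members, EEF1A1, EIF1, EIF2S2 (307.5), EIF3E (218.4) and ETF1 (213.5), and 11 were among the comparison genes. That list was made by symbol and also takes in the antisense gene EEF1A1-AS1 and the eIF4E-binding protein genes EIF4EBP1 and EIF4EBP2. The 5 members held 10.4% of the members' sum, and EEF1A1 alone held 8.70%.

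RNA processing supplied 16 members of 56 genes with a value, with 33 more among the comparison genes. Of the splicing regulators of the SRSF family, 5 of 7 listed genes were members. These were SRSF3, SRSF6 (819.2), SRSF5 (631.0), SRSF7 (586.6) and SRSF10 (489.8), while SRSF8 had 104.3 and SRSF12 0.303. Both TRA2 genes, which encode related splicing activators, were members, TRA2B with 848.5 and TRA2A with 463.02. Among HNRNP genes, whose proteins coat nascent transcripts, HNRNPH1 (915.7), HNRNPC (703.0), HNRNPA0 (543.01), HNRNPR (285.4) and HNRNPF (224.6) were members, and the only other listed symbol was an antisense gene at 0. SFPQ (656.1), RBM39 (607.4), DDX17 (499.03) and SNRPD1 (214.0) completed the list. These families were singled out after their values were seen.

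Targets of YAP/TEAD and TGF-beta, 2 pathways that read cell shape and secreted growth factors, had 9 members of 14 genes, and the other 5 lay among the comparison genes. CCN1 was the highest, and the others included F3 (1124), the tissue factor that starts coagulation, NT5E (868.9), the ectonucleotidase CD73, and FSTL1 (430.4). SKIL (391.8), SMAD7 (290.9) and TGIF1 (213.4), which restrain SMAD signalling, and TGFBI (253.2), a matrix protein, were also members. SNAI1 (155.9), TGFBR2 (129.9), SNAI2 (81.3), SKI (57.5) and EDN1 (31.4) were below the limit. The wider list of matrix and adhesion genes had 7 members of 72, among them CCN1, ALCAM, CAVIN1 (254.7), TGFBI, ADAMTS1 (252.5) and EFEMP1 (231.8), and 22 of its genes were at 0.

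The list of immediate early and stress response genes, many of which have short-lived transcripts and are switched on quickly, had 13 members of 34, with 14 among the comparison genes. The highest were ZFP36L1, MCL1, KLF6 (806.7), a zinc finger transcription factor, PPP1R15A (654.3), which directs dephosphorylation of eIF2-alpha, and IER5 (519.4). MYC had 490.4, TXNIP 485.1, SPRY2 408.8, RND3 387.0, TRIB1 304.7, GADD45A 268.3, NFKBIA 245.2 and CYP1B1 217.8. TATAAA was present in 4 of these 13 and a pyrimidine start in 0. Their median length was 5151 bp.

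Among metabolic and protein-handling lists, oxidative phosphorylation had 8 members of 31. These were COX7C, CYCS (460.8), which encodes cytochrome c, UQCR10 (356.0), COX7A2 (263.9), NDUFB4 (250.9), ATP5MC1 (246.3), COX6B1 (243.2) and ATP5MC2 (230.8), while 20 more genes lay among the comparison genes. Glycolysis had LDHB (464.6) and PGAM1 (431.1) of 3 genes. Cholesterol and fatty acid synthesis had the desaturase gene FADS2 (251.3) and the methylsterol monooxygenase gene MSMO1 (226.8) of 8. The proteasome and ubiquitin list had 4 members of 24, among them the proteasome genes PSMD2 (441.5), PSMC3 (291.6) and PSMB7 (245.05). The chaperone list had DNAJB1 (573.8), BAG3 (424.3) and the collagen chaperone SERPINH1 (214.1) of 20. HSP90AA1 (1012, rank 25), the inducible HSP90, was a member that the list's symbol pattern does not take in.

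Cytoskeleton genes had 9 members of 68, led by ANXA2, TUBA1A (481.3), MARCKS (420.07), KRT80 (398.4) and CFL2 (384.1), and 31 genes of that list were at 0. The cell cycle list had 7 of 65 and 44 among the comparison genes. Its members were PLK2, the checkpoint protein gene BUB3 (463.1), CCND1 (395.2), which encodes cyclin D1, CDKN2AIP (335.4), the proliferation marker MKI67 (333.7), the transcriptional repressor E2F7 (315.3) and the mitotic kinase CDK1 (216.9). CDKN2AIP encodes a protein that binds the ARF product of CDKN2A and is no CDK inhibitor itself. General transcription and chromatin had HMGN2 (854.8), a nucleosome-binding protein gene, MED10 (250.9), POLR2J3 (233.7) and POLR2M (231.5) of 37, with 29 among the comparison genes.

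PLK2 was the only member among the 8 genes of the p53 target list, and the next of that list, AEN and BAX, had 107.9 and 75.4. The list is short, so a member left off it was not counted as a p53 target. It does not hold E2F7 (315.3), RPS27L (302.4), PMAIP1 (286.7) or GADD45A (268.3), all members, and gives no count of p53 targets among the members. CDKN1A and MDM2 are not among the listed genes. The genotype of the series is RPE1 iCas9 p53/puro-dKO. CUL4B (493.3), a ubiquitin ligase scaffold, was the only member of 9 genes on the nucleotide excision repair list, in which XPA had 112.4 and ELOF1 50.5. Of the genes the study follows, GALNT1 ranked 465 with 148.2 and the PAF1C subunits CTR9 and LEO1 ranked 1606 with 59.3 and 1807 with 50.7, so that none was a member.

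Large families can be read against the 2.63% of all genes with a value that were members. Of 131 solute carrier genes with a value 0 were members and 51 were among the comparison genes. Of 221 ZNF zinc finger genes 3 (1.36%) were members, ZNF24 (290.4), ZNF264 (238.8) and ZNF622 (213.8), while 149 made up 5.42% of the comparison genes.

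**Figure D3:**
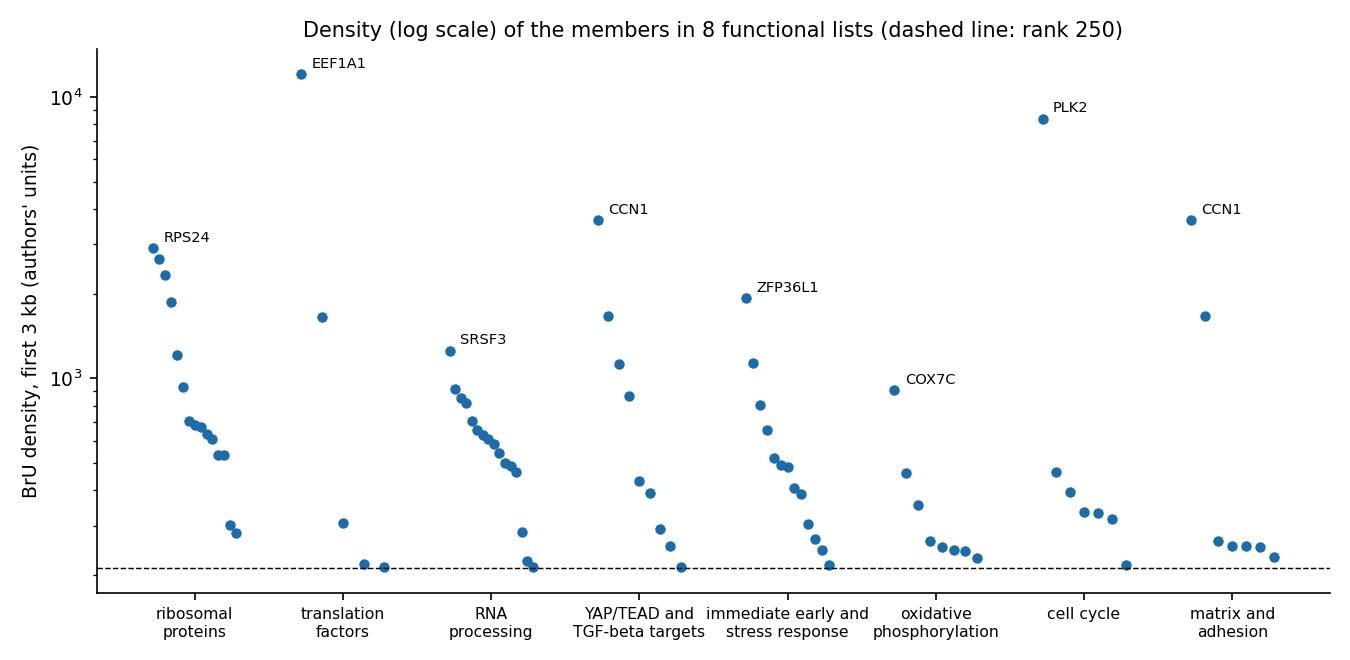
BrU density in the first 3 kb (authors' units, log scale) of the members on 8 lists, 1 point per gene, sorted by density within a list, with the highest named. The dashed line is the density of rank 250, 211.9, and a gene on several lists appears in each.

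The cell type markers were mostly outside the members. OTX2 (217.1, rank 235), a transcription factor of the retinal pigment epithelium, was the only member among 7 listed markers of that tissue, whereas MITF had 13.3, RLBP1 1.26, LRAT 0.997 and RPE65 0.260, and TTR and RGR were at 0. The 2 listed epithelial markers, CLDN1 and KRT19, had 2.86 and 0. Of 7 mesenchymal markers none was a member and 6 were among the comparison genes, with SNAI1 at 155.9 and PDGFRB at 136.1 the highest. The listed markers of that tissue other than OTX2 and MITF were thus at or near 0 in this column.

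By gene class, 239 members (95.6%) were protein-coding in GENCODE v44, against 91.5% of the comparison genes and 63.4% of all. Noncoding RNA genes made up 8 members (3.2%, against 7.82% and 35.2%). These were NORAD, ENSG00000278903 (326.9), LINC01638 (303.7), LINC00641 (276.6), DLGAP1-AS2 (229.0), ENSG00000276077 (228.4), DLGAP1-AS1 (220.9) and LINC02454 (217.1). DLGAP1-AS2 and DLGAP1-AS1 have windows that share most bases, so their values are not separate signals. The listed ends of NORAD, LINC01638, DLGAP1-AS2, ENSG00000276077 and LINC02454 match no annotated transcript. By the exons used here, exon share was 0% in the windows of DLGAP1-AS2 and LINC02454. NORAD was 7.01 times the next noncoding member. The other 3 were TRIM16L (283.4), classed as a transcribed pseudogene, ENSG00000279289 (320.4), which the annotation marks for an experimental check, and ENSG00000275895 (274.0), classed as an artifact. Members had 6 exons at the median and the comparison genes had 8, and 11 members had a single exon, among them NORAD, HNRNPA0, ZCCHC3, IER5 and KLHL9.

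Several members share sequence with other places in the genome, and the aligner kept reads with up to 20 matches at their primary position, so that their reads may have been split or gained. Processed pseudogenes named for the gene were annotated for 74 members (29.6%), against 13.1% of the comparison genes and 5.52% of all. PPIA had 89, EEF1A1 45, CYCS 42 and HMGN2 38. The 176 members without one had a median length of 14692 bp, against 30373 bp in the comparison genes, and 9.66% of them had TATAAA, against 1.05%. A pyrimidine start was found in 4.55% of these 176, against 4.27%, and in 27.0% of the 74 others. A near-identical copy, with at least 2000 aligned bases of the first 3 kb at 95% identity or more, was found for 9 members (3.6%, against 3.31%). NORAD, SIK1, NPIPB5, SEC22B, TRIM16L, POLR2J3, ENSG00000278903, ENSG00000275895 and ENSG00000276077 are therefore uncertain. The copy of SIK1 aligned over 3000 bases at 99.97% identity, and NPIPB5 had 11 such copies.

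Neighbouring genes touched few members, but the list was chosen for spacing, so this is no trait of the members. The paper describes keeping genes that did not overlap, were at least 3 kb long and lay at least 2 kb apart. Another annotated gene lay on the same strand within the first 3 kb of 18 members (7.2%, against 8.04%), among them RPL26, SRSF6, CALM2 and LDHB, and an opposite-strand gene in 31 (12.4%, against 11.8%). An annotated small RNA gene lay in the window of 1 member, COX7C. With the coordinates as listed, 15 members were closer than 2 kb to another listed gene. PNRC2 (1089), ZFAND5 (1064), DDX17, SRSF10 and DKK1 (416.8) had the highest densities of these. PNRC2 and SRSF10 are themselves neighbours 884 bp apart, and DLGAP1-AS1 and DLGAP1-AS2 overlap. Both of the latter lie on the plus strand, with listed starts at 3594099 and 3594151. Their windows therefore share most bases, and their densities largely count the same reads. Beyond these, only LINC00641 with HNRNPC (2246 bp apart) and ZMIZ1 with PPIF (30949 bp apart) lay within 100 kb of each other. LINC00641 lies downstream of HNRNPC on the same strand, and whether its window holds reads that run on from HNRNPC was not tested.

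By chromosome, the members were spread over all autosomes and X. Chromosome 10 carried 18 (7.2%, against 4.8% of the comparison genes), of which 16 lay on the long-arm side, among them RPS24, MYOF, BUB3 and PGAM1. RPE1 cells are known to carry an extra copy of part of that arm, and its part in the density was not tested. Chromosome 14 carried 12 (4.8%, against 2.33%), chromosome 19 carried 6 (2.4%, against 5.96%) and chromosome X carried 3 (1.2%, against 4.47%), which were RPS4X, CUL4B and MSN (367.7).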

How the data were processed

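H2BK120Ub ChIP-seq libraries were trimmed with Trim Galore 0.6.5 and aligned with BWA 0.7.17 per the labels and the study's methods, and no value of a library was analysed here. The authors took genes from the UCSC knownCanonical table. By the study's methods they kept genes of 3 kb or more that did not overlap and lay 2 kb or more apart. The authors aligned BrU-seq reads of an earlier study to GRCh38.p14 with STAR 2.7.7a. They deposited 1 column, made with HOMER 4.8.2, as a read density over each gene's first 3 kb, which is treated as a score since its scale is not given in the sources used here. How many libraries it pools is not given in the table. Values within 1e-06 of 0 were taken as 0, and 87 genes had no value. Unused columns with values of single samples numbered 0.

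Genes were matched by identifier to GENCODE 44 (9538 of 9588), with positions 1-based on hg38, whose main chromosomes have the coordinates of GRCh38.p14. Exons, introns, small RNA genes, neighbours, base composition and promoter letters were taken from the listed TSS. First 3 kb windows were aligned to the genome with minimap2 2.31. Processed pseudogenes were counted by the gene symbol in their names. Sequence functions were tested on simulated data. RefSeq promoter windows were an alternative for 199 members.

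The members and lists were chosen with earlier results of these data known. Genes are not replicates, so groups were compared by counts and medians, without tests. The genes named were the 20 highest members, up to 5 highest of each list, the 5 longest and shortest, those not protein-coding, those at the limit, with small RNA genes or close to other genes, GALNT1 and subunits of PAF1C. All others were chosen after their values were seen. Results on some of these genes are not reported here. Python 3.11.15 with pandas 2.3.3 and matplotlib 3.10.9 was used.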

Additional observations from a re-analysis of the deposited data

How the results depend on the processing

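No paired analysis was possible because no result comes from a test. Of 66 recomputed values of 15 results, 57 stayed near the main value and 9 moved. Near means within its 95% interval (Wilson for shares, order statistics for medians) or within 1.5 times a count or a share of the sum. These intervals treat genes as independent draws, which they are not. Most alternative sets also share most of their genes with the members, for example 247 of 250 on autosomes only. The count of 57 is therefore no measure of robustness. Without genes that have a named processed pseudogene, an alternative chosen after seeing the data, the 250 highest genes had a median length of 19783 bp, 20.8% reached 50 kb and 6.0% had a pyrimidine start. That set shares 176 genes with the members, and the comparison genes under the same exclusion had 29304 bp, 32.8% and 4.0%. Without ribosomal protein and translation factor genes the pyrimidine start fell to 6.8%, against 4.25%. With TATAA in place of TATAAA the share was 12.8%. Both of these were also added after seeing the data. With all other genes above 0 as the comparison group, its median length was 24948 bp, its protein-coding share 74.6%, its share of at least 50 kb 28.7% and its median exon share 8.17%. At RefSeq starts, TATAAA was found in 6.03% and the pyrimidine start in 13.1% of 199 members. With the first 200 or 300 genes the median length was 12169 or 15755 bp and the share of the summed density 37.6% or 43.9%. Protein-coding share was not recomputed among protein-coding genes only, since it is fixed there. With 1 value per gene and no replicate, the order of neighbouring ranks is not known beyond counting error.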
